A study of Homo sapiens with 6 samples.

Results

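This account follows 7 of the 63563 genes in the deposited gene table: ADTRP, its paralog AIG1, and 5 genes of the tissue factor pathway of blood coagulation and its inhibition (F3, TFPI, TFPI2, THBD and PROCR). They were picked by symbol, with the difference of ADTRP between the groups already known, so their differences between the groups are given as a description with no test. The cells were RKO, an established human colorectal cancer line, stably transfected with the vector pcDNA3.1. The empty vector gave the group EV (3 libraries) and the same vector with the cDNA of Cx43, a gap junction protein encoded by GJA1, gave the group OVER43 (3 libraries). Both groups therefore carry the vector and its selection. The labels do not say how many clones each line came from, nor whether replicate libraries are separate cultures, so the spread given below may be technical and the p-values measure only that spread.

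Tissue factor, the product of F3, is a membrane protein that starts coagulation by binding factor VIIa; the complex activates factor X and, through thrombin, leads to fibrin. TFPI, the tissue factor pathway inhibitor, is a Kunitz-type inhibitor that blocks this complex and factor Xa. ADTRP is a multipass membrane protein named for androgen-dependent regulation of TFPI; it and AIG1 are also threonine hydrolases that cleave fatty acid esters of hydroxy fatty acids. Thrombomodulin (THBD) and the endothelial protein C receptor (PROCR) are the cell surface receptors on which thrombin activates the anticoagulant protein C. Tumour cells of epithelial origin can carry tissue factor, whereas thrombomodulin and the protein C receptor are best known from endothelium.

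Levels are FPKM (fragments per kilobase of transcript, scaled to library depth), which can be compared between genes because they are per length. Low values of a library moved in steps worth 1 fragment each, which placed the libraries at 42.55 to 52.15 M fragments on the scale of the deposited FPKM. GJA1 served as a check of the labels: its FPKM was 23.2, 26.0 and 24.9 in the OVER43 libraries but 0.2999, 0.351 and 0.394 in EV, so no library went against its label. Of 7 epithelial markers 3 passed the filter: EPCAM, at 20.5 FPKM in OVER43 and 12.5 in EV, KRT18, at 148.4 and 79.4, and KRT8, which went the other way at 24.6 and 58.7. KRT19 and CDH1 stayed under 1 FPKM, and CLDN3 and CLDN4 were listed at 0 in all 6 libraries. Of 8 colon markers 3 passed it, CDX2 and CA2 among them; CDX1, VIL1, MUC2 and LGR5 were near 0 and KRT20 was listed at 0. None of 10 endothelial markers passed the filter, and together they summed to 0.643 to 1.32 FPKM in OVER43 and 0.555 to 0.675 in EV. None of 5 platelet and 9 fibroblast markers passed it either, and of 7 leukocyte markers only CD68 did, at 376 and 413 FPKM. A value near 0 need not mean that a gene is silent here: FLNA, the filamin of nearly all adherent cells, stood at 0.0434 and 0.114 FPKM.

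The sequences below show what the measurements rest on. ADTRP and AIG1 are paralogs, so fragments could in principle be credited to the wrong gene, and the start of each coding sequence is shown for that reason. Both are from the GENCODE annotation on GRCh38, on chr6:11778607-11778759 (minus strand) and chr6:143060926-143061066 (plus strand), with the start codon in capitals.
ADTRP coding exon 1: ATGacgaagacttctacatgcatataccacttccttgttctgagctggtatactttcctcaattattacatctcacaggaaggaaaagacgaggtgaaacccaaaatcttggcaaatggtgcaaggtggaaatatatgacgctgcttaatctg
AIG1 coding exon 1: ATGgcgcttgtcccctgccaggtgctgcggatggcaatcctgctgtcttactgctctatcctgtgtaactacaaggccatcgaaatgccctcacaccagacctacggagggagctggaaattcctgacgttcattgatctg
Over the whole coding sequences (690 bases in ADTRP-203 and 714 in AIG1-202), 59.4% of 658 aligned bases were identical, and the longest exact run shared by the 2 transcripts was 12 bases.

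The second pair is upstream sequence from RefSeq (GRCh38.p14), shown because F3 and PROCR are, in EV, the least and the most abundant members that passed the filter, and because several transcription factors known to act on F3 differed between the groups. The F3 window lies on the minus strand at chr1:94541801-94542009 and ends at the start of the transcript; the capitals mark matches to the AP-1 motif TGANTCA. The PROCR window lies on the plus strand at chr20:35171822-35172071. Its capitals mark matches to the TATA box motif (TATAAA) and to GC boxes (GGGCGG), on either strand.
F3 upstream: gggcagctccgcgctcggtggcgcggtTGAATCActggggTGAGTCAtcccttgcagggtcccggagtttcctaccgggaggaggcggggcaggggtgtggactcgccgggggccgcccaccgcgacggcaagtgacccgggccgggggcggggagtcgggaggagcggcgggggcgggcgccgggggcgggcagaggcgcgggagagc
PROCR upstream: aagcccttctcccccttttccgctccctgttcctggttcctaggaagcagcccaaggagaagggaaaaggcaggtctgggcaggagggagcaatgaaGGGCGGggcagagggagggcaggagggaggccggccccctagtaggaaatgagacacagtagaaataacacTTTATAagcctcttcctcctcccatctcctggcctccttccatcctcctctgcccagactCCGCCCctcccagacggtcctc
The F3 window held 2 AP-1 matches, and 5.58% of 35116 RefSeq promoter windows cut to their first 209 bases held at least 1. Unlike the F3 window, these were not cut at their own annotated transcript starts, so their distance from the start can differ. It also held 4 GC boxes (36.9% of windows held any), 1 match to the EGR motif GCGNGGGCG (6.56%; this match overlaps a GC box), 1 match to the NF-kB motif GGANTTTCC (1.18%) and no TATA box. The PROCR window of 250 bases held 2 GC boxes (42.6% of windows of that length held any) and 1 match to TATAAA (10.7%, either strand). That match reads on the strand opposite to the gene, as TTTATA in the window, so it is not counted as a TATA box of PROCR. A match is a string of letters and not evidence of binding.

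In OVER43 the ADTRP transcript was nearly gone, and the other members were at or near their level in EV. ADTRP stood at 0.968% of its EV level. TFPI, PROCR and AIG1 were within 10% of theirs, with values that overlapped between the groups. F3 was weakly expressed in both groups and lower in each OVER43 library than in any EV library. TFPI2 and THBD were at or near 0 throughout. In a bulk sample, fewer cells with a transcript and less of it per cell cannot be told apart.

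ADTRP (ENSG00000111863.8) is listed on chromosome 6 at 11712287 to 11807279; this and the gene positions below are hg19 positions, as deposited. Its level was 0.3935, 0.330 and 0.266 FPKM in the OVER43 libraries, whereas EV gave 34.2, 34.2 and 33.8 FPKM. All OVER43 libraries were low, and the EV libraries differed from each other by little, with a mean of 34.1 ± 0.220 FPKM (SD, n = 3) against 0.330 ± 0.0637. The ratio of the means was 103.3, and the difference of log2(FPKM + 1) was -4.72. That difference ranked 4 from the lowest among the 12205 genes tested. In EV, ADTRP was no rare transcript: 78.75% of the tested genes had a lower mean.

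AIG1 (ENSG00000146416.12; chromosome 6, 143381633 to 143661441), the paralog, read 29.1, 29.1 and 27.8 FPKM in OVER43 and 27.4, 25.5 and 28.1 FPKM in EV. The groups overlapped, at 28.7 ± 0.740 and 27.0 ± 1.36 FPKM (SD, n = 3), with a log2 difference of 0.09. By gene total, ADTRP was thus somewhat above AIG1 in EV and far below it in OVER43. The complete coding transcripts ADTRP-203 and AIG1-202 each had an EV mean of 12.6 FPKM. Per 100 FPKM of the AIG1 total, the ADTRP total stood at 124.9, 134.3 and 120.3 FPKM in the EV libraries and at 1.35, 1.13 and 0.956 in the OVER43 libraries.

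F3 (ENSG00000117525.9; chromosome 1, 94994781 to 95007356), which encodes tissue factor, read 1.44, 1.47 and 1.61 FPKM in OVER43 and 2.60, 1.72 and 2.36 FPKM in EV. Each OVER43 library lay below each EV library, but EV library 1 came close to them. The means were 1.51 ± 0.0874 and 2.23 ± 0.457 FPKM (SD, n = 3) and the log2 difference was -0.35. In EV only 11.97% of the tested genes had a lower mean, so its level was low among the genes tested.

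TFPI (ENSG00000003436.10; chromosome 2, 187866603 to 188430487, a deposited locus that is longer than the gene and bundles it with others) read 62.4, 62.4 and 54.8 FPKM in OVER43 and 52.3, 57.6 and 55.6 FPKM in EV. OVER43 library 2 lay among the EV libraries. The means were 59.9 ± 4.36 and 55.2 ± 2.71 FPKM (SD, n = 3), a log2 difference of 0.11. TFPI mRNA thus far exceeded that of its target: F3 stood at 2.31, 2.36 and 2.93 FPKM per 100 of TFPI in OVER43 and at 4.97, 2.98 and 4.25 in EV.

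TFPI2 (ENSG00000105825.7; chromosome 7, 93220885 to 93540577, also a bundle), a related Kunitz-type inhibitor of plasmin and other proteases, was listed at 0 in OVER43 libraries 0 and 2 and at 0.0370 FPKM in library 1. In EV it was listed at 0.00864 FPKM in library 0 and at 0 in the others. The EV value corresponds to about 1 fragment of TFPI2-201. THBD (ENSG00000178726.6; chromosome 20, 23026270 to 23030378), a gene without introns, was listed at 0 in all 6 libraries.

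PROCR (ENSG00000101000.4; chromosome 20, 33703167 to 33872788, a bundle) was the most abundant member, at 143.8, 148.2 and 144.3 FPKM in OVER43 and 148.1, 149.3 and 137.5 FPKM in EV. The groups overlapped, with means of 145.5 ± 2.38 and 145.0 ± 6.48 FPKM (SD, n = 3) and a log2 difference of 0.0058. In EV, 96.25% of the tested genes had a lower mean. The 2 receptors of the protein C pathway thus stood at opposite ends of the listed values, PROCR among the most abundant transcripts and THBD at 0. A value of 0 need not mean that THBD is silent in these cells.

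**Figure D1:**
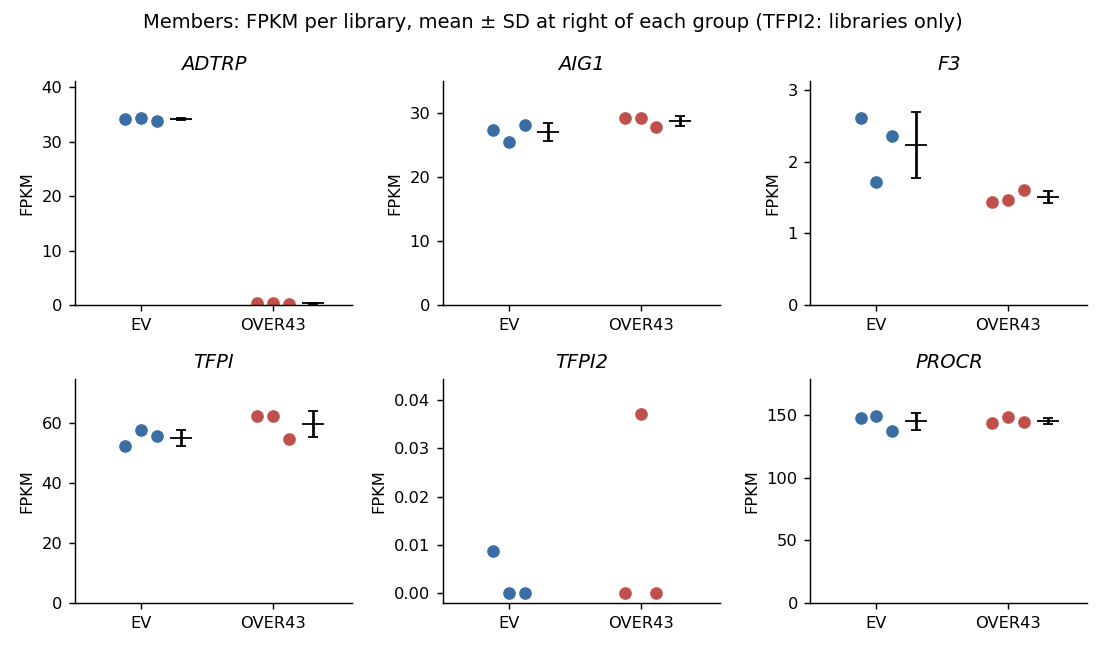
FPKM of 6 members (vertical axis, linear, from 0 or just under it) in the 3 EV and the 3 OVER43 libraries (points), with mean ± SD at the right of each group except for TFPI2, whose values are mostly listed at 0. ADTRP is near 34 FPKM in EV and under 0.4 in OVER43, while AIG1, TFPI and PROCR overlap between the groups; THBD, listed at 0 in all libraries, is not drawn.

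By level in EV the order was PROCR, TFPI, ADTRP, AIG1, F3, TFPI2 and THBD. Neighbours in that order were apart by more than their spread, except TFPI2 and THBD at or near 0. In OVER43 ADTRP moved behind F3, and the order of the others stayed as it was. The order of TFPI, AIG1 and F3 held in each of the 6 libraries.

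Of the 7 members, 5 passed the filter (a minimum of 1 FPKM in 3 or more libraries); TFPI2 and THBD did not. Limma's moderated test was run across all genes and so covered these 5, of which 1, ADTRP, was called (adjusted p under 0.05), in the lower direction. That call followed from how the members were chosen and is no test of ADTRP. Of all 12205 genes tested, 45.9% were called, 28.4% higher and 17.5% lower in OVER43. The groups did not overlap in 2 of the 5, ADTRP and F3, and in 56.3% of all genes tested. Since the members were chosen with this contrast known, nothing is read from these counts. Other scalings of the libraries moved the split of all calls: 3462 genes were higher and 2138 lower as deposited, 1870 and 3567 with equal FPKM sums in all libraries, and 2543 and 2452 with quantile scaling. Scaling to the same sum moved the median log2 difference of all genes by -0.13, from 0.05 to -0.08.

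The small differences of 3 members changed sign with the scaling. AIG1 stood at -0.05 with equal sums, TFPI at -0.03 with equal sums and -0.02 with quantile scaling, and PROCR at -0.05 with TMM scaling, -0.14 with equal sums and -0.18 with quantile scaling. No direction is therefore given for AIG1, TFPI or PROCR. ADTRP was between -4.81 and -4.72 under these scalings.

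The isoform table splits ADTRP into 11 spliced entries and 1 entry that spans the whole gene with its introns. Names such as ADTRP-203 are those of GENCODE. In EV the FPKM lay mainly on 2 entries. ADTRP-203, the transcript with the complete coding sequence of 690 bases, read 12.6, 12.8 and 12.2 FPKM in EV and 0.198, 0.109 and 0.0368 FPKM in OVER43. ADTRP-209, a transcript of 942 bases annotated without a coding sequence, read 19.0, 17.1 and 18.6 FPKM in EV and 0.113, 0.0735 and 0 FPKM in OVER43. Both were low in all OVER43 libraries.

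The split between these entries is less certain than their sum, since 711 of the 942 bases of ADTRP-209 lie in exons of ADTRP-203. In EV ADTRP-209 made up 53.5% ± 3.02 and ADTRP-203 36.8% ± 0.578 of the gene's FPKM (SD, n = 3). By estimated fragments the order differed, since the entries differ in length: an EV library held 529.9 to 720.3 fragments of ADTRP-209, 1003 to 1213 of ADTRP-203 and 5786 to 7377 of the whole-gene entry. In OVER43 the shares of ADTRP-209 were 28.7%, 22.2% and 0% and those of ADTRP-203 50.4%, 33.0% and 13.8%. These shares rest on few fragments: the OVER43 values of ADTRP-203 correspond to 17.9, 9.54 and 3.16 fragments, against 1003 to 1213 in EV. The shares of ADTRP-209 did not overlap between the groups and those of ADTRP-203 did; a difference in the mix of transcripts was not tested. Of the other entries, ADTRP-210 read 0.961, 1.04 and 0.776 FPKM in EV, and ADTRP-206 read 0, 1.73 and 0.775 FPKM there. In OVER43 each of these 2 was at most 0.138 FPKM in any library. A further 3 entries, ADTRP-202, ADTRP-205 and ADTRP-207, were listed at 0 everywhere.

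The whole-gene entry of ADTRP, 94993 bases long, holds fragments from introns and stands in here for unspliced RNA, although genomic DNA and stray exon fragments count in it too. It read 0.0156, 0.0163 and 0.0138 FPKM in OVER43 and 1.49, 1.44 and 1.40 FPKM in EV. Because the entry is long, these low values correspond to 72.9, 74.0 and 60.9 fragments in OVER43 and to 7377, 5786 and 6215 in EV. The ratio of the means was 94.7, close to that of the gene as a whole. Per 100 FPKM of spliced entries the whole-gene entry stood at 4.12, 5.20 and 5.45 in OVER43 and at 4.57, 4.37 and 4.31 in EV, and the groups overlapped. Fragments across the introns and spliced transcripts of ADTRP were thus low together.

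**Figure D2:**
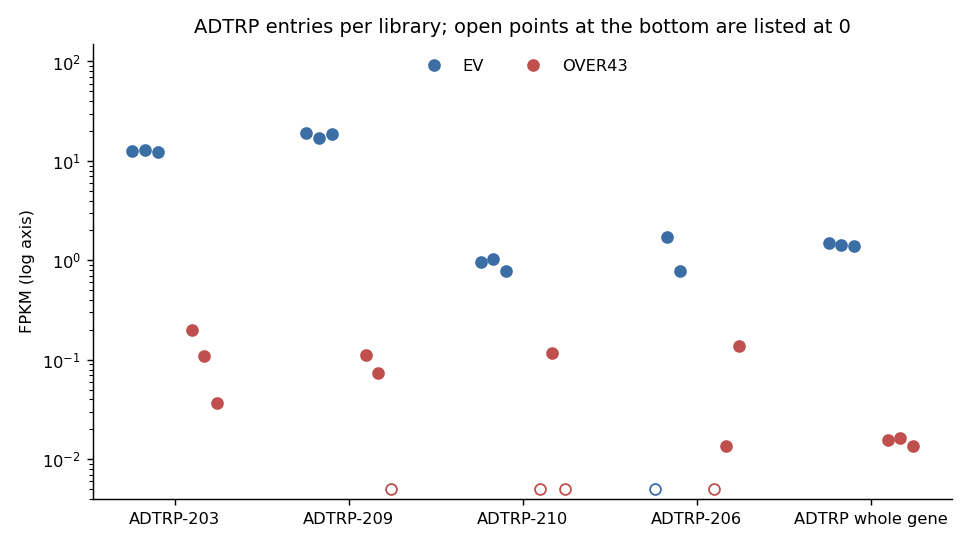
FPKM (vertical log axis) of the 4 spliced ADTRP entries with the highest EV means and of the entry that spans the whole gene, in the 3 EV and the 3 OVER43 libraries (points; open points at the bottom are values listed at 0). The 2 main entries lie between 12.2 and 19.0 FPKM in EV and at 0.198 FPKM or less in OVER43, and the whole-gene entry is low in the same libraries.

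AIG1 differed from its paralog in this respect. Its main entry, AIG1-202, with a complete coding sequence of 714 bases, read 12.3, 12.7 and 12.99 FPKM in OVER43 and 13.8, 12.5 and 11.4 FPKM in EV. AIG1-203, an entry with a short coding sequence of 141 bases, stood at 7.60 ± 0.459 and 7.23 ± 0.622 FPKM (SD, n = 3). AIG1-206, whose coding sequence is annotated as incomplete, swung from 0 to 5.50 FPKM within EV. The whole-gene entry of AIG1 was lower in OVER43, at 0.0369, 0.0370 and 0.0361 FPKM, than in EV, at 0.0570, 0.0552 and 0.0512 FPKM. That entry thus did not overlap between the groups, while the gene's total FPKM did.

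TFPI is made in 2 main forms. TFPI-alpha is secreted and has a basic tail, and TFPI-beta is held on the membrane by a lipid anchor. TFPI-201 and TFPI-203 share the longest coding sequence, 912 bases, the length class of TFPI-alpha; TFPI-202 and TFPI-204 have 753 coding bases, the class of TFPI-beta. Entries with the same coding length traded places between libraries: TFPI-201 read 0.828, 11.03 and 11.1 FPKM in OVER43 and 9.55, 5.39 and 1.14 in EV, and TFPI-203 read 14.2, 5.76 and 3.87 in OVER43 and 4.73, 8.30 and 13.4 in EV. Neither entry has a stable value of its own within a group.

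Their sum was steady. TFPI-201 and TFPI-203 together read 15.0, 16.8 and 15.0 FPKM in OVER43 and 14.3, 13.7 and 14.6 FPKM in EV. As deposited the groups did not overlap, by a narrow margin. This sum was not run under other scalings, and the difference of the whole gene changed sign with equal sums and with quantile scaling. TFPI-202 and TFPI-204 together read 3.71, 5.44 and 6.40 FPKM in OVER43 and 6.46, 5.68 and 7.84 FPKM in EV, with overlap. As shares of the gene's FPKM, the longer form made up 26.1% ± 1.78 and 25.8% ± 1.84 and the shorter one 8.78% ± 2.86 and 12.1% ± 2.14 (SD, n = 3, OVER43 first). The entry with the most signal was neither: ENST00000426055, which has no match in the GENCODE version used, held 41.4% and 39.4% of TFPI.

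**Figure D3:**
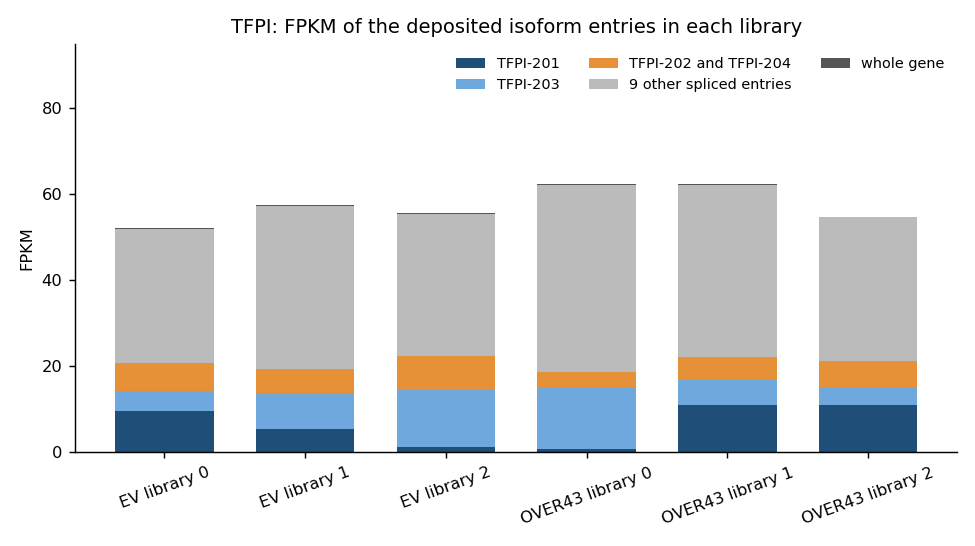
FPKM of the deposited TFPI entries (stacked bars from 0) in each EV and OVER43 library, with the 2 entries of the longest coding sequence in blues, the 2 of the shorter complete one in orange, 9 other spliced entries in light grey and the whole-gene entry in dark grey. The blue shades trade places between libraries while their sum stays between 13.7 and 16.8 FPKM.

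F3 has a full-length transcript, F3-201, and a shorter one, F3-202, that lacks an exon and is known to encode a soluble form of tissue factor. F3-201 read 0.985, 1.31 and 1.30 FPKM in OVER43 and 1.70, 1.19 and 2.08 FPKM in EV, with overlap between the groups. F3-202 read 0.416, 0.0904 and 0.254 FPKM in OVER43 and 0.540, 0.295 and 0.126 FPKM in EV. All 1879 bases of F3-202 lie in exons of F3-201, so the 2 are told apart by the fragments that cross the missing exon, and F3-202 ranged from 5.33% to 28.9% of the gene's FPKM within these libraries. F3-204, an entry without a coding sequence, was listed at 0 in OVER43 and read 0.341, 0.193 and 0.112 FPKM in EV. The lower gene total of F3 in OVER43 was spread over F3-201, F3-202 and F3-204 and rested on 100.2 to 129.3 fragments of F3-201 in an OVER43 library and 105.1 to 202.1 in an EV library. The whole-gene entry of F3 went the other way, at 0.0407, 0.0437 and 0.0530 FPKM in OVER43 and 0.0208, 0.0353 and 0.0402 FPKM in EV, on 13.4 to 30.6 fragments a library. PROCR has 1 spliced entry, PROCR-201, which held 99.9% of its FPKM in both groups.

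The 5 genes whose profile over the 6 libraries was most like that of ADTRP were found among the other 12204 tested genes by the root mean square distance of centred log2(FPKM + 1). The nearest was S100A10, a binding partner of annexin A2, at a distance of 0.0926, with 1.14, 0.914 and 0.770 FPKM in OVER43 and 54.3, 59.0 and 53.9 FPKM in EV. MAP1LC3C, an LC3 family protein, followed at 0.121, C19orf33 at 0.289, CEP170, a centrosomal protein, at 0.736 and AKAP12, a kinase-anchoring scaffold, at 0.885. All 5 were low in each OVER43 library and high in each EV library. With 2 groups of 3, such a likeness says mainly that the genes share the size of their difference between the groups. S100A10 lies on chromosome 1, C19orf33 on chromosome 19 and AKAP12 on chromosome 6 at 151561134 to 151679692, far from ADTRP.

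Other genes of coagulation, its control and lipid hydrolysis were taken from 7 lists of 80 genes. Of these, 48 passed the filter, and limma called 13 higher and 14 lower in OVER43; 21 were not called. The share called was 56.25%, against 45.9% of all genes, and the median log2 difference was 0.0055, against 0.05. The lists were chosen with earlier results of these data known, so these shares are a description. The split was 10 higher and 22 lower with equal sums and 10 and 18 with quantile scaling. Genes are named below by a rule on the size of their difference among those called.

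Of 16 coagulation factors, 1 passed the filter. F12, which starts the contact pathway, read 20.1 ± 0.451 FPKM in OVER43 and 17.8 ± 2.24 in EV (SD, n = 3) and was not called (limma adjusted p = 0.133); it was called higher when EV library 2 was left out. F7 and F10, the partners of tissue factor, stood at 0.00483 and 0.225 FPKM in OVER43 and at 0.0209 and 0.149 FPKM in EV. F8, F9 and FGG were listed at 0 in all libraries. As with FLNA, values this low are not taken to tell whether those genes are silent.

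Of 10 anticoagulants, 3 passed the filter, 1 higher and 2 lower. ANXA5, annexin A5, which covers the anionic lipids that coagulation needs, rose to 344.7, 345.7 and 335.3 FPKM in OVER43 from 221.7, 233.2 and 218.1 in EV (log2 difference 0.61, SE 0.033, limma adjusted p = 8.22e-06). PROS1, protein S, a cofactor of activated protein C and of TFPI, fell to 14.8, 14.7 and 15.3 FPKM from 19.9, 19.0 and 20.1 (-0.37, SE 0.052, adjusted p = 0.000743). SERPINE2, an inhibitor of thrombin, fell to 0.254 ± 0.0471 FPKM from 1.24 ± 0.281 (SD, n = 3; -0.83, adjusted p = 0.00196). PROC, the gene of protein C itself, was at 0.129 and 0.0587 FPKM.

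The protease-activated receptors pass the signal of thrombin and of the tissue factor complex into the cell, and 2 of 4 passed the filter. F2R (PAR1, the main thrombin receptor) read 0.220, 0.139 and 0.712 FPKM in OVER43 and 4.25, 3.54 and 3.56 FPKM in EV (log2 difference -1.84, SE 0.17, limma adjusted p = 9.51e-05). F2RL1 (PAR2, which is cut by factor VIIa and Xa) read 4.13, 4.85 and 4.47 FPKM in OVER43 and 2.60, 2.81 and 2.60 FPKM in EV (0.58, SE 0.091, adjusted p = 0.00129). F2R was thus lower and F2RL1 higher in every OVER43 library, and F2RL1 was the more abundant of the 2 in OVER43 and F2R in EV. F2R shares its deposited locus with F2RL2, which was listed at 0 in OVER43 and at 0.0190 to 0.0586 FPKM in EV.

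Genes that handle tissue factor and TFPI at the membrane (13 listed, 11 tested) held 1 higher and 7 lower call, with a median log2 difference of -0.34 against 0.05 for all genes. Of all genes tested, 17.5% were called lower. Because the list was chosen with earlier results of these data known, nothing is read from this difference. Lower calls in the list numbered 8 under each of the 3 other scalings and 5 to 7 with any 1 library left out. P4HB, the protein disulfide isomerase that acts on tissue factor, rose to 330 ± 9.22 FPKM from 220 ± 6.35 (SD, n = 3; 0.58, limma adjusted p = 1.06e-05). LRP1, a scavenger receptor that takes up TFPI, read 7.53, 7.78 and 7.58 FPKM in OVER43 and 14.3, 14.4 and 14.5 FPKM in EV (-0.83, SE 0.057, adjusted p = 2.36e-05). CAVIN1, a coat protein of caveolae, was 26.1 ± 0.850 against 29.3 ± 0.114 FPKM (SD, n = 3; -0.16, adjusted p = 0.0200), and its adjusted p was 0.0692 without OVER43 library 0, 0.0617 without OVER43 library 1, 0.0501 without EV library 0 and 0.0524 without EV library 1. The heparan sulfate proteoglycan GPC1 was not called, at 26.5 and 26.0 FPKM, and FLNA and GPC3 did not pass the filter.

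All 7 genes of factor maturation and secretion were tested, 2 of them higher and none lower. LMAN1 and MCFD2, which together form the receptor that carries factors V and VIII out of the endoplasmic reticulum, rose to 28.1 ± 1.75 from 20.6 ± 1.33 FPKM (SD, n = 3; 0.43, limma adjusted p = 0.00118) and to 89.8 ± 3.26 from 65.9 ± 4.66 FPKM (0.44, adjusted p = 0.000437). GGCX and VKORC1, the enzymes of vitamin K-dependent carboxylation, were not called, at 10.6 and 12.2 FPKM and at 75.5 and 77.7 FPKM. With equal sums 4 genes of this list were called lower, with quantile scaling 3 and with TMM scaling 2.

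Of 13 other genes of lipid hydrolysis, 11 were tested, with 3 higher and 1 lower. PPT1, a lysosomal thioesterase, rose to 87.2 ± 0.557 from 66.7 ± 3.05 FPKM (SD, n = 3; 0.38, limma adjusted p = 0.000192). LYPLA1, an acyl-protein thioesterase, was 101.4 ± 1.55 against 84.1 ± 2.22 FPKM (0.27, adjusted p = 0.000489). FAAH, which cleaves fatty acid amides, was 3.79 ± 0.115 against 2.79 ± 0.334 FPKM (0.34, adjusted p = 0.0216); its adjusted p was 0.0685 without OVER43 library 0, 0.0541 without OVER43 library 2, 0.0681 without EV library 1, 0.0962 with equal sums and 0.0641 with no filter. PNPLA2, the triglyceride lipase of fat stores, was 31.8 ± 1.80 against 37.6 ± 3.41 FPKM (-0.23, adjusted p = 0.0307), with groups that overlap; its adjusted p was 0.0943 and 0.0789 without OVER43 library 1 or 2 and 0.0999 and 0.0921 without EV library 1 or 2.

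Among 17 transcription factors known to act on F3, THBD or ADTRP, 13 were tested, with 5 higher and 3 lower. EGR1, which binds the EGR motif of the kind found in the F3 window, fell to 30.4, 35.0 and 34.6 FPKM from 62.6, 68.6 and 67.0 (-0.97, SE 0.063, limma adjusted p = 1.94e-05). JUN, a subunit of AP-1, fell to 174.4, 166.6 and 175.4 FPKM from 232.1, 238.0 and 242.8 (-0.46, SE 0.032, adjusted p = 2.70e-05). NFKB1 rose to 30.5 ± 0.310 from 22.2 ± 0.871 FPKM (SD, n = 3; 0.44, adjusted p = 0.000208). JUND was 38.0, 37.7 and 40.0 FPKM against 22.8, 24.7 and 37.1 (0.47, adjusted p = 0.0497); leaving out any library but EV library 2 gave an adjusted p of 0.107 to 0.150, and each other scaling one of 0.0773 to 0.155. The factors with a motif in the F3 window thus moved in both directions.

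**Figure D4:**
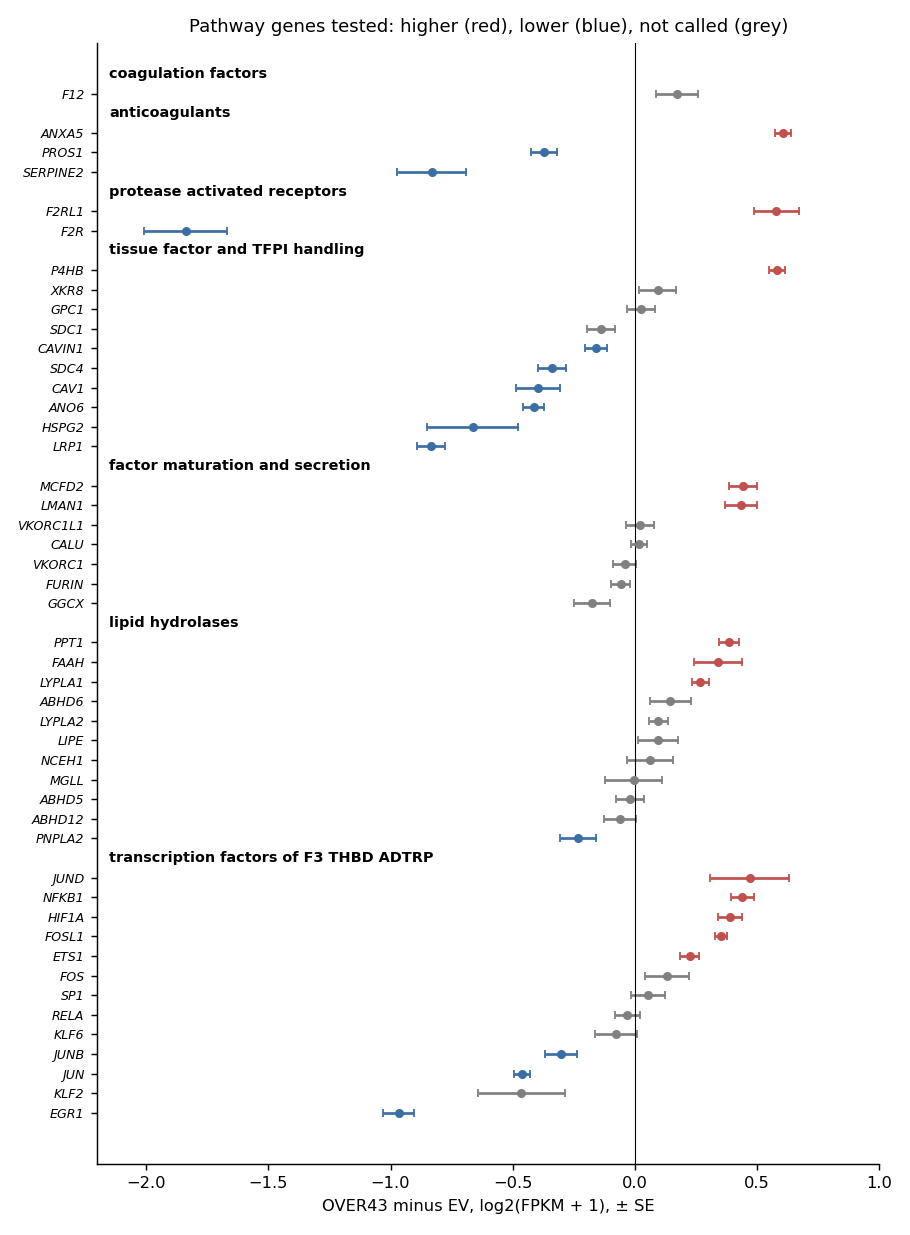
Difference of log2(FPKM + 1), OVER43 minus EV, with its SE (horizontal axis), for tested genes of the 7 lists, grouped by list; 1 of the 48 is not drawn. Red points were called higher, blue lower and grey not called; F2R at -1.84 lies farthest from 0, and most genes that handle tissue factor and TFPI lie to the left of 0.

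Genes beside the members were examined next: 188 had a deposited locus within 500 kb of a member's, and 42 of these were tested. For TFPI, TFPI2 and PROCR that locus is a bundle longer than the gene. A gene counted beside them can therefore lie more than 500 kb from the member itself. Limma called 19 higher and 6 lower, 59.5% against 45.9% of all genes. With equal sums and with quantile scaling the split was 12 higher and 7 lower.

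Beside ADTRP only HIVEP1, a zinc finger protein 200.6 kb away, was tested. It read 2.14, 1.75 and 1.58 FPKM in OVER43 and 4.16, 3.57 and 2.94 FPKM in EV (log2 difference -0.69, SE 0.13, limma adjusted p = 0.00345). Its whole-gene entry was also lower, at 0.00689, 0.00797 and 0.00803 FPKM in OVER43 and 0.0193, 0.0225 and 0.0249 FPKM in EV. The nearest tested gene was thus lower too, with a ratio of means of 1.96 where that of ADTRP was 103.3.

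Beside AIG1, 2 of 6 tested genes were higher and none lower. FUCA2, a fucosidase, was 85.6 ± 1.59 against 62.8 ± 2.23 FPKM (SD, n = 3; 0.44, limma adjusted p = 7.59e-05) and LTV1, a ribosome assembly factor, 42.1 ± 1.63 against 32.8 ± 0.711 FPKM (0.35, adjusted p = 0.000496). HIVEP2, a paralog of HIVEP1, was not called, at 7.43 and 7.97 FPKM.

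Beside the bundle that holds TFPI all 3 tested genes were called, at 235.9 to 492.5 kb from its edge. Their distance from TFPI itself can be larger. FAM171B was 3.52 ± 0.377 against 5.61 ± 0.340 FPKM (SD, n = 3; -0.55, limma adjusted p = 0.00204) and ITGAV, the integrin subunit alpha V, 12.7 ± 0.585 against 15.5 ± 0.815 FPKM (-0.27, adjusted p = 0.00917). ZC3H15 was higher, at 72.9 ± 0.994 against 58.2 ± 1.47 FPKM (0.32, adjusted p = 0.000259). The tested genes beside that bundle thus moved in both directions. Beside TFPI2, 3 of 5 tested genes were lower: the gene with the identifier ENSG00000236453, at 1.27 ± 0.481 against 4.96 ± 0.623 FPKM (-1.41, adjusted p = 0.000266), SAMD9L (-0.47, adjusted p = 0.0201) and BET1 (-0.20, adjusted p = 0.0239). SAMD9L gave an adjusted p of 0.0595 and 0.0623 without OVER43 library 0 or 2 and 0.0565 and 0.0537 without EV library 1 or 2. BET1 gave 0.0662 and 0.0729 without OVER43 library 1 or 2 and 0.0807 and 0.0564 without EV library 1 or 2.

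Beside F3, whose own log2 difference was -0.35, 3 of 5 tested genes were higher. ARHGAP29, a GTPase-activating protein 254.2 kb away, read 75.3, 69.3 and 74.3 FPKM in OVER43 and 7.20, 6.67 and 6.76 FPKM in EV (3.23, SE 0.055, limma adjusted p = 1.78e-08). ABCD3, named here after its values were seen because it lies nearest at 10.6 kb, was 34.8 ± 0.255 against 28.9 ± 0.350 FPKM (SD, n = 3; 0.26, adjusted p = 0.00125). ALG14, a glycosylation enzyme, read 3.04, 2.21 and 2.09 FPKM in OVER43 and 10.2, 13.9 and 2.67 FPKM in EV and was not called (-1.31, adjusted p = 0.0959); without EV library 2 its adjusted p was 0.000262 (-1.91). CNN3-DT, a noncoding RNA, was not called either (0.38, adjusted p = 0.105; 0.0480 without EV library 2).

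Beside THBD, NXT1, an RNA export factor, was higher at 34.3 ± 2.04 against 28.1 ± 0.593 FPKM (SD, n = 3; 0.28, limma adjusted p = 0.00357), and GZF1 and NAPB were not called. Of 31 genes in the window of THBD only these 3 passed the filter. All 3 lie on the side of higher coordinates, 297.2 to 324.8 kb from THBD, which was itself listed at 0. Beside PROCR, 12 of 19 tested genes were higher and none lower. CEP250, a centrosomal protein, was 44.8 ± 2.12 against 26.5 ± 0.562 FPKM (0.73, adjusted p = 2.01e-05) and UQCC1, an assembly factor of the respiratory chain, 35.1 ± 1.30 against 23.4 ± 0.934 FPKM (0.56, adjusted p = 8.41e-05). The pseudogene MT1P3, which can share reads with other metallothionein genes, ranged from 0 to 18.9 FPKM within OVER43 and was not called. Higher calls beside PROCR numbered 9 with TMM scaling and 6, with 1 lower, under the other 2 scalings. PROCR itself differed by 0.0058 in this setting.

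**Figure D5:**
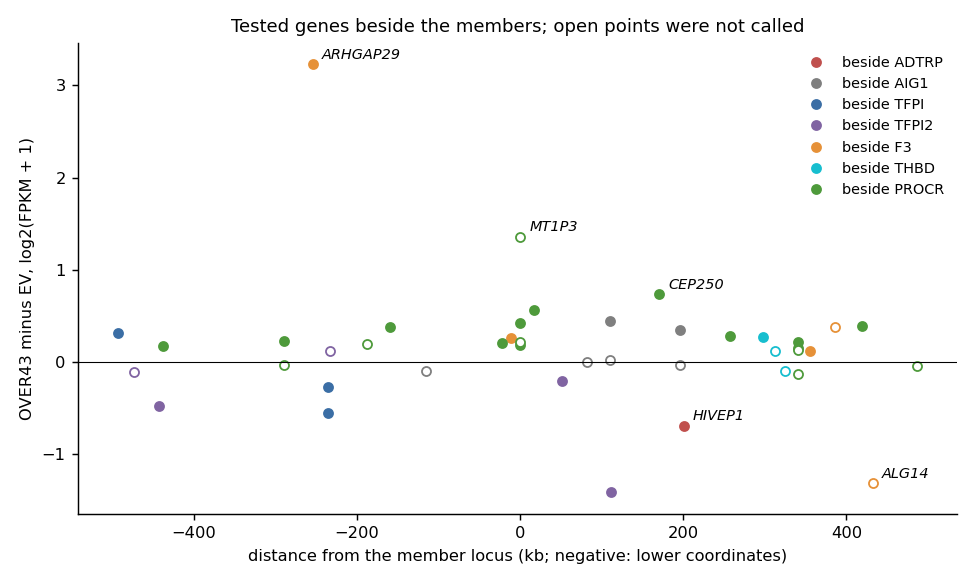
Difference of log2(FPKM + 1), OVER43 minus EV, of the 42 tested genes beside the members against their distance from the member's deposited locus (horizontal axis, kb), coloured by member. Filled points were called and open points were not; ARHGAP29 beside F3 stands at 3.23, HIVEP1 beside ADTRP at -0.69, and most filled points beside PROCR lie above 0.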

How the data were processed

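Poly(A) RNA of the 6 libraries was prepared with a TruSeq kit (per the labels' protocols). The authors deposited 1 FPKM value per library for 63563 genes and 251748 isoform entries, made with Cuffdiff, per the submitters' processing notes; the sources used here name no aligner, version or strand setting. Those notes name hg38, but the deposited loci are hg19 positions. Columns numbered 0 to 2 were matched to groups by name only. Cuffdiff gave no usable estimate for 19 genes, which were left out; 0 per-library columns were left unused.

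Genes with at least 1 FPKM in 3 of 6 libraries entered limma (version 3.58.1 under R 4.3.3, with trend and robust variances) on log2(FPKM + 1), group as the only term, two-sided, Benjamini-Hochberg adjusted p under 0.05. Counts had been considered as a possible unit; the tables hold FPKM, so the test for FPKM was used. On simulated data with independent noise (12205 genes, 200 changed, no shift in scaling) it recovered 65% of log2 changes of 0.5 and 88% of changes of 1, with 5 false calls. In the real comparison 45.9% of genes were called and the split moved with the scaling. The simulated figures therefore give no rate of false calls for it. Depth came from the FPKM steps of 126 to 152 low values per library, 100% of them within 0.1 of a whole fragment. Fragment numbers of single entries were computed from that depth and the transcript length and are estimates.

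Members and gene lists were chosen with earlier results of these data known. Named genes are the members, GJA1, up to 4 called genes per list (the 2 highest and 2 lowest), up to 3 tested neighbours per member by size of difference, and the 5 profiles nearest to ADTRP; some genes that meet this rule are left out of the text. Sequences are from RefSeq and GENCODE. The alternatives comprised TMM scaling (own code), equal sums and quantile scaling, a pseudocount of 0.1, no filter or at least 5 FPKM, a block by library number, and leaving out each library.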

Additional observations from a re-analysis of the deposited data

How the results depend on the processing

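ADTRP kept its direction under every alternative run, at -4.81 with equal sums, -6.32 with a pseudocount of 0.1 and -4.76 to -4.69 with 1 library left out. Calls over all genes became 1870 higher and 3567 lower with equal sums, and ranged from 2968 to 3169 higher and 1769 to 1918 lower with 1 library left out. Pathway calls became 22 lower with equal sums and ranged from 11 to 14 higher and 12 to 15 lower with 1 library left out. Calls beside the members became 12 higher with equal sums, 12 higher with quantile scaling and 3 lower with a filter of at least 5 FPKM, which tests fewer genes; they ranged from 15 to 20 higher and 4 to 6 lower with 1 library left out. Of 497 alternatives over 39 named genes, 458 gave the same call, 36 lost it, 3 gained it and 0 reversed; among the losses, LYPLA1 had an adjusted p of 0.125 with quantile scaling, JUND 0.0516 with a pseudocount of 0.1, and with no filter PNPLA2 had 0.178, JUND 0.244, SAMD9L 0.0576 and BET1 0.104. The difference of F3 was -0.52 with a pseudocount of 0.1.

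Libraries with the same column number did not deviate together (r = 0.0166, -0.0909 and 0.0285). No pairing by number was thus seen, but 3 libraries a group cannot exclude one. With the library number as a replicate block, 3306 genes were called higher and 2010 lower, 13 and 13 pathway genes, and 20 and 6 genes beside the members; PNPLA2 lost its call (adjusted p = 0.0627) and CNN3-DT gained it (0.0381).

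Depth limits the isoforms of ADTRP in OVER43 and those of F3, and with 3 libraries a group no statement rests on more than the spread between them.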
